A study of Homo sapiens with 6 samples.

Results

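Glycolysis and hypoxia response genes were followed in LX-2, an established line of human hepatic stellate cells, the cells that lay down scar matrix in the injured liver. The set held 32 genes picked by symbol, all of them among the 27830 genes of the deposited table. They were 2 glucose transporters, 15 glycolytic enzymes, 2 enzymes that set fructose 2,6-bisphosphate, 3 genes of pyruvate and lactate disposal, 8 other targets of the hypoxia response and 2 HIF-α subunits. RNA sequencing covered 3 samples given 10 ng/ml of transforming growth factor beta 1 (TGF-β1) for 24 h and 3 control samples. All cells were grown in DMEM with 10% fetal bovine serum, and the treatment itself was in medium without serum. The medium of the controls during those hours is not stated in the sources used here, so an effect of serum cannot be told apart from one of TGF-β1 if the controls kept theirs. The labels name replicates 1 to 3 in each group without saying that they were separate cultures, so p-values measure only how far these samples scatter, and that scatter may be technical.

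Glycolysis splits glucose into pyruvate in the cytosol, and lactate dehydrogenase turns pyruvate into lactate that leaves the cell through monocarboxylate transporters. The hypoxia-inducible factors (HIFs) are transcription factors made of an oxygen-labile α subunit and a stable partner, ARNT. In oxygen, prolyl hydroxylases mark the α subunit for destruction by the VHL ligase. When oxygen is short, HIF accumulates and switches on genes of glucose uptake, glycolysis, lactate export, pH control and mitophagy. Stellate cells that turn into matrix-producing myofibroblasts are known for raised glycolysis, and TGF-β1 is the cytokine most used to start that change in culture. HIF-α messenger RNA is not a measure of HIF activity, since the protein is controlled mainly by its breakdown.

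HIF binds a short core, ACGTG or GCGTG, read on either strand. Promoters are shown for 4 members because they carry this core in different arrangements, and for 2 genes of the wider HIF response because they were the ones called in the comparison below. Each sequence is the RefSeq window on GRCh38.p14 from 250 bases before to 50 bases after the annotated start, 5′ to 3′ on the gene's own strand. Capitals mark ACGTG and GCGTG on that strand and their complements CACGT and CACGC for the opposite strand, with overlapping matches merged. PGK1 lies at chrX:78103998-78104297 on the plus strand, ENO1 at chr1:8878637-8878936 on the minus strand, LDHA at chr11:18394313-18394612 on the plus strand and BNIP3 at chr10:131981874-131982173 on the minus strand. ADM lies at chr11:10304823-10305122 on the plus strand and CITED2 at chr6:139374599-139374898 on the minus strand.
PGK1: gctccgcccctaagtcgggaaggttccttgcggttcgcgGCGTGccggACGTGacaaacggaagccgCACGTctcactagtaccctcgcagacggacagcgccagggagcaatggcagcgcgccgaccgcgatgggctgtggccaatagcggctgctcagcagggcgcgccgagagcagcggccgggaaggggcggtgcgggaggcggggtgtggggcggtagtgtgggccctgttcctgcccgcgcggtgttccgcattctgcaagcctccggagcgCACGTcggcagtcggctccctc
ENO1: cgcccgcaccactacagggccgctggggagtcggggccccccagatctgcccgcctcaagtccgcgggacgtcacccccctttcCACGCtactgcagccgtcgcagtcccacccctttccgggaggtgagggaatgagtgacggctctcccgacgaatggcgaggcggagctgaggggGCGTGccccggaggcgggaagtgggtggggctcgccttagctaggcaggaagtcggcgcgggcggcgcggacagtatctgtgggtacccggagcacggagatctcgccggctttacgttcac
LDHA: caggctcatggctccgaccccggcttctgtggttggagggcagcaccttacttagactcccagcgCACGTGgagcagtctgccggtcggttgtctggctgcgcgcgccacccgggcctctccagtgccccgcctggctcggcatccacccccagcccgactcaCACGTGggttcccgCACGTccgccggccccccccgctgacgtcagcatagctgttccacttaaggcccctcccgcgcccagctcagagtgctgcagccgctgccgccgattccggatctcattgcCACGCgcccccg
BNIP3: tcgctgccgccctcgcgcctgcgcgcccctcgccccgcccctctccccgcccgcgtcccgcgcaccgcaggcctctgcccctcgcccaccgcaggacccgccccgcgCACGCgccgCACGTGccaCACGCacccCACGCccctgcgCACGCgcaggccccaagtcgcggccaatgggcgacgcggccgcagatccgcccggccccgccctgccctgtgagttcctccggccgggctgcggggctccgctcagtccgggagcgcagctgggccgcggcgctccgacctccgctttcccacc
ADM: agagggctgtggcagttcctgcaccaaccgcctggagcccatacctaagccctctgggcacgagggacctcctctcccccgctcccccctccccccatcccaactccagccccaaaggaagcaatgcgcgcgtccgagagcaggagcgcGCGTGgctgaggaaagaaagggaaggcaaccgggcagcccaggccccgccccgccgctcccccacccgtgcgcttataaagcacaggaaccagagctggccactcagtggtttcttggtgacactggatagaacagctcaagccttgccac
CITED2: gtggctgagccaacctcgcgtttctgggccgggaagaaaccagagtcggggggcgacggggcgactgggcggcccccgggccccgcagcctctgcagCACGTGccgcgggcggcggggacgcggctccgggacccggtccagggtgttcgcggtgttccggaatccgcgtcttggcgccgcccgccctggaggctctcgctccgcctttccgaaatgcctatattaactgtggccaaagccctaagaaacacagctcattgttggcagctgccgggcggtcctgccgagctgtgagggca

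The PGK1 window held 4 separate matches, the first 3 of them beginning 211, 202 and 183 bases before the start. LDHA also held 4, and in 2 of these the core read on both strands at once as CACGTG, beginning 185 and 87 bases before the start. BNIP3 held 5 matches clustered between 143 and 104 bases before the start, with 1 CACGTG among 4 CACGC. ENO1 held 2, ADM 1 and CITED2 1, the last again CACGTG. For LDHA, with 2 annotated starts, and CITED2, with 3, the start farthest upstream is shown.

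Of the 32 members, 29 had a RefSeq promoter in the table used (all but SLC2A3, BNIP3L and NDRG1), and 27 of these held at least 1 core at 1 of their starts (93.1%, exact 95% interval 77.2 to 99.2%, counting error only). The share was 61.9% of 15843 protein-coding genes in the same table, and 48.4% of all 35116 windows of this length. ACGTG alone was present for 17 of the 29 members (58.6%) and for 28.5% of the protein-coding genes. Among the 15 glycolytic enzymes 14 held a core, PGAM1 being the exception, and among 6 other hypoxia targets 5 did, EGLN3 being the exception. Members with several starts had more windows to match, and over the single windows of the members the share was 66.7% of 57. In the last 150 bases of the single windows the share was 33.3% for members, close to the 31.8% of all windows. A match here is a description of letters, and occupancy by HIF was not measured.

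Depth and other facts of the whole table bear on what can be seen for single members. Library totals were 13866957 to 16454700 counts in the TGF-β1 samples and 14118402 to 17694675 counts in the controls. The treatment left a mark: FN1, encoding fibronectin, had 3739, 3563 and 3372 CPM (read counts scaled by library size, with TMM factors) in TGF-β1 replicates 1 to 3, against 933, 959.7 and 1063 CPM in control replicates 1 to 3. TGFBI, TAGLN and PMEPA1 were called higher too, while SMAD7 (edgeR adjusted p = 0.268) and ACTA2 (0.898) did not pass. ACTA2 was low in both groups, at 3.95 to 6.33 CPM in TGF-β1 samples and 4.69 to 5.36 CPM in controls. A gene was called when its p from edgeR's quasi-likelihood F test, adjusted by Benjamini-Hochberg over the 14463 genes tested, was under 0.05. Only 53 genes were called, 0.366% of those tested (0.187% higher and 0.18% lower). COL1A1, COL3A1 and vimentin led the stellate markers, whose summed level was 3014 to 3437 CPM in TGF-β1 samples and 2895 to 3082 CPM in controls. However, DES, LRAT, PDGFRA and the protein-coding row of RGS5 stayed under 1 CPM. COL1A2 was also low, at 2.67 to 3.16 CPM in TGF-β1 samples and 2.04 to 2.56 CPM in controls. Summed markers of hepatocytes were 55.9 to 71.7 CPM in TGF-β1 samples against 50.2 to 53.8 CPM in controls, over 4 of 6 listed markers (CPS1, SERPINA1, APOA1 and CYP3A4, the last 2 under 1 CPM). Epithelial markers, mostly KRT8 and KRT18, summed to 417 to 606 CPM against 541 to 685 CPM in controls, with EPCAM and KRT19 under 1 CPM. Leukocyte markers summed to 19.9 to 22.5 CPM against 24.9 to 31.7 CPM in controls, and endothelial markers to 2.98 to 3.50 CPM against 3.23 to 4.84 CPM in controls, each over 4 of 6 markers, PTPRC, LYZ, CDH5 and STAB2 being under 1 CPM. The part of these cell types in the results below was not tested. In bulk samples such as these, fewer cells of a type and less RNA per cell cannot be told apart.

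The libraries also differed by the base composition of transcripts, and this touches several members below. Over 234 genes whose longest transcript had at most 35% GC, the median log2 deviation from the gene's mean was 0.68, 0.24 and -0.18 in TGF-β1 replicates 1 to 3, against -0.08, -0.42 and -0.15 in control replicates 1 to 3. The median log2 difference of TGF-β1 over control was 0.51 for these genes and -0.12 for 2169 genes with 55 to 60% GC. HIF1A (36.4% GC), BNIP3L (38.9%) and PDK1 (39.8%) are AT-rich, while 12 of the 15 glycolytic enzymes lie between 51.2 and 57.5%. Each member is therefore given as scaled by TMM and, where it matters, with the smooth GC trend of each library removed.

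**Figure D1:**
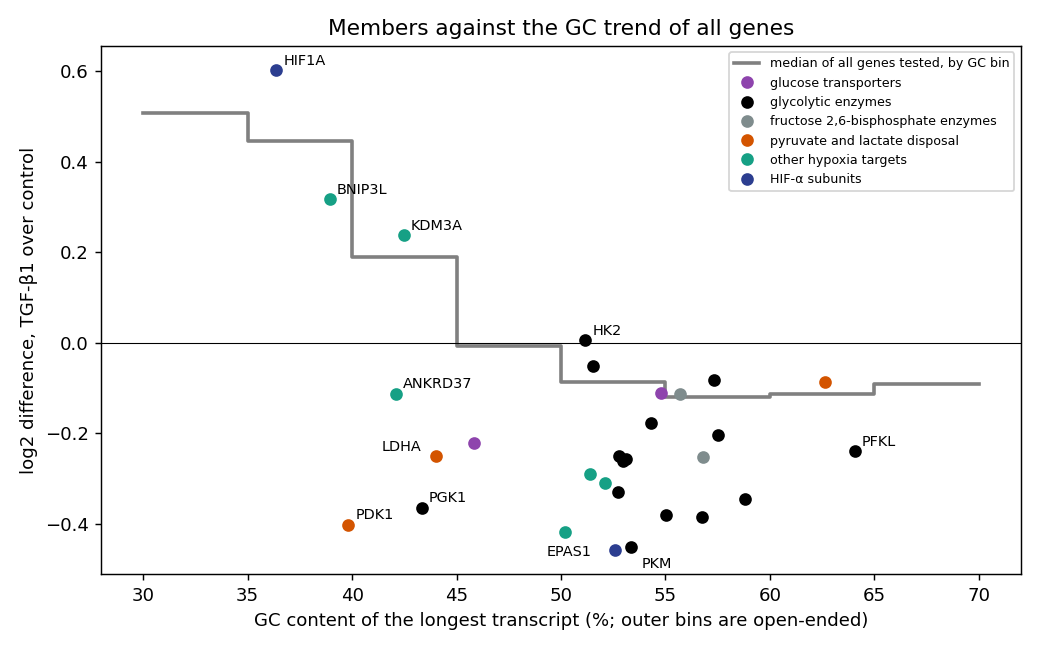
Log2 difference of TGF-β1 over control (y axis) against the GC content of the longest transcript (x axis, percent) for the 30 members tested, 1 point per gene, coloured by role; the grey line is the median of all genes tested in each GC bin. HIF1A, BNIP3L and KDM3A sit at the AT-rich end where the median of all genes is above 0, and PDK1, PGK1 and LDHA lie below that line.

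Taken member by member, the set lay slightly lower after TGF-β1, and by the test over all genes no member was called in either direction. Of the 30 members tested, 26 had a log2 difference below 0, against 49% of all genes tested. Their median was -0.25, against 0.007 over all genes. At an unadjusted p under 0.05, 9 members were lower and 1 was higher, where 15.6% of all genes passed at that level, 4.49% lower and 11.1% higher. DESeq2 also called 0 members, while calling 4.25% of all genes. In 6 members every TGF-β1 library lay below every control library, namely SLC2A3, PKM, LDHA, CA12, BNIP3 and EPAS1. That share can be set against 9.12% of all genes, and no member had every TGF-β1 library above every control, against 7.93% of all genes.

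Abundance is part of the setting for these comparisons, because many glycolytic messages are among the most abundant of the cell. The median log2 difference of all genes tested was -0.081 between 100 and 500 CPM, -0.11 between 500 and 1000 CPM and -0.085 over 1000 CPM, so abundant genes in general lay a little below 0. With the GC trend removed, 24 of the 30 members were below 0, against 53.2% of all genes, and their median was -0.19. EPAS1 and PDK1 were then called lower, 2 members where 3.33% of all genes were called and 1.64% called lower. Without TGF-β1 replicate 3, HIF1A was called higher and PKM, ENO1, PGK1, GAPDH, ENO2 and EPAS1 lower, where 9.24% of all genes were called higher and 2% lower. That replicate was the lowest treated library in HIF1A and the highest in the others named, so leaving it out had to widen these differences. Without TGF-β1 replicate 1, EPAS1 alone was called lower, where 0.734% of all genes were. Without TGF-β1 replicate 2, or without control replicate 1, 2 or 3, 0 members were called. With both changes, the GC trend removed and TGF-β1 replicate 3 left out, 9 members were called lower, where 5.73% of all genes were. With no filter on low counts HIF1A was called higher, where 3.85% of all genes were, and PKM and EPAS1 lower, where 0.607% were.

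**Figure D2:**
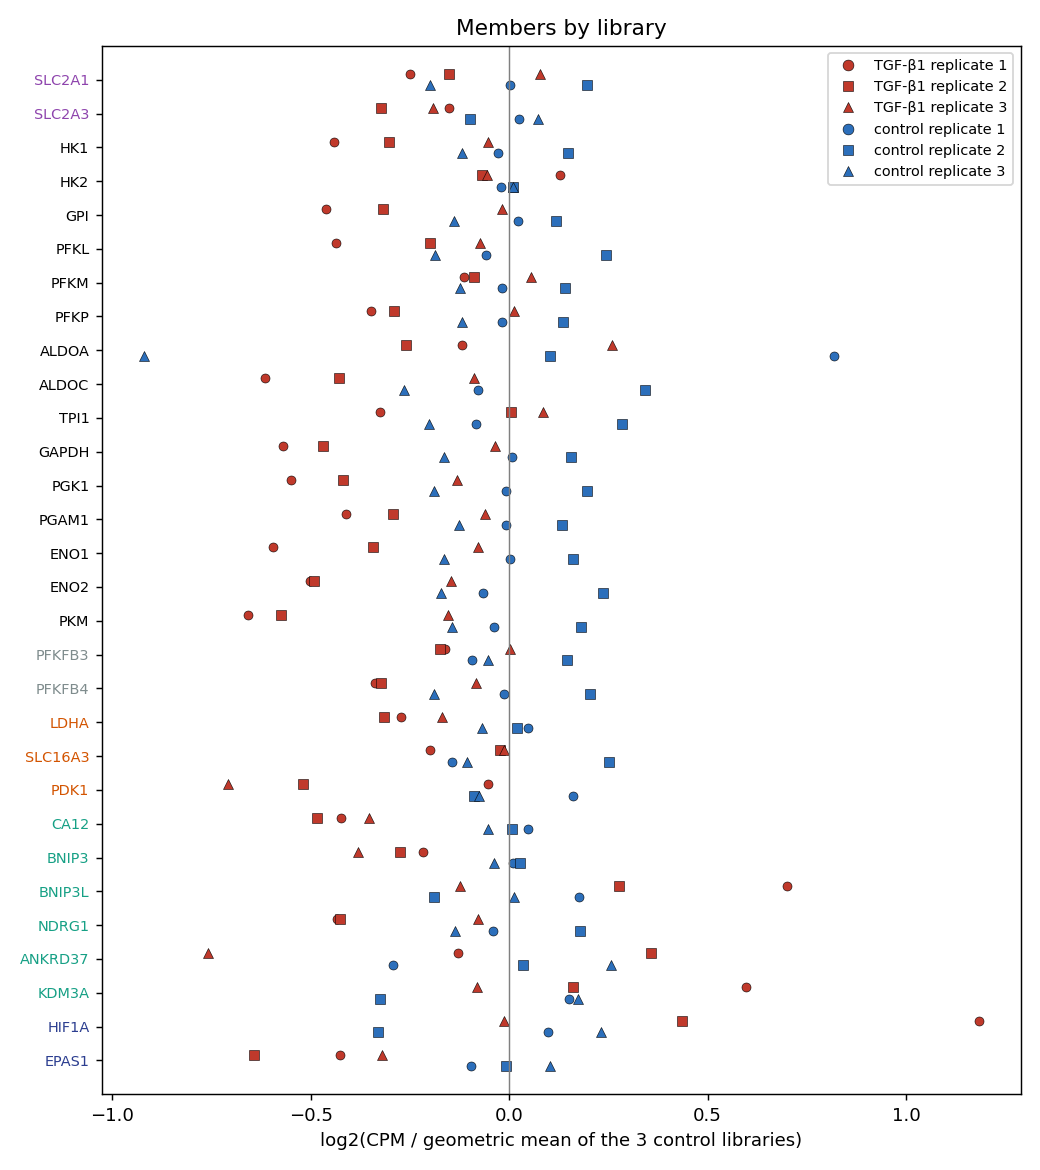
Log2 of each library's CPM over the geometric mean of the 3 control libraries (x axis) for the 30 members tested (rows, gene names coloured by role in pathway order); red marks above each row's centre are TGF-β1 libraries, blue marks below it are controls, and the shape gives the replicate. For most enzymes TGF-β1 replicates 1 and 2 lie left of all controls while replicate 3 lies among them; EPAS1, BNIP3, CA12, LDHA, PKM and SLC2A3 are the rows whose groups do not overlap.

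SLC2A1 and SLC2A3 encode GLUT1 and GLUT3, carriers that let glucose into the cell. SLC2A3 had 109, 97.0 and 106 CPM in TGF-β1 replicates 1 to 3, against 123, 113 and 127 CPM in control replicates 1 to 3. Every TGF-β1 library lay below every control, and the log2 difference was -0.22 ± 0.12 (SE), short of the threshold (edgeR adjusted p = 0.403, and 0.0789 with the GC trend removed). SLC2A1, the transporter of most dividing cells, had 151, 161 and 189 CPM in TGF-β1 samples and 179, 205 and 156 CPM in controls. Its groups overlapped, with TGF-β1 replicate 3 above control replicates 1 and 3, and its 95% interval for the log2 difference ran from -0.42 to 0.20. Per length SLC2A1 stood above SLC2A3 in both groups, SLC2A1 at 25.3 ± 2.50 FPKM in TGF-β1 samples against 27.0 ± 3.20 FPKM in controls, and SLC2A3 at 17.2 ± 0.905 FPKM against 19.8 ± 1.57 FPKM in controls (SD, n = 3 per group).

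The 15 glycolytic enzymes together took 1.53% of counts in the TGF-β1 samples and 1.90% in the controls. Their summed level was 13120, 14546 and 18108 CPM in TGF-β1 replicates 1 to 3, against 18780, 21601 and 17056 CPM in control replicates 1 to 3. The groups overlapped in that sum, since TGF-β1 replicate 3 lay above control replicate 3. Of the 15, 14 had a log2 difference below 0 and 0 were called, the median being -0.26 and the range -0.45 for PKM to 0.0052 for HK2. After removal of the GC trend the sums were 13874, 15080 and 17629 CPM in TGF-β1 samples against 18749, 20388 and 17112 CPM in controls, 12 enzymes were below 0 and the median was -0.19. ALDOA, whose level is uncertain for a reason given below, held only 0.908 CPM in TGF-β1 samples and 1.03 CPM in controls. Without ALDOA 13 of 14 enzymes were below 0 on the TMM scale (median -0.26) and 11 with the GC trend removed (median -0.19).

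At the entry to the pathway no hexokinase or phosphofructokinase gene was called, and the log2 estimates ran from near 0 for HK2 to -0.26 for HK1. Hexokinases phosphorylate glucose and so trap it in the cell. HK1, the widely expressed form, had 400.4, 440.4 and 524 CPM in TGF-β1 samples and 532, 602 and 500.5 CPM in controls, a log2 difference of -0.26 ± 0.14 (SE; edgeR adjusted p = 0.380). HK2, the form induced by HIF, had 135, 118 and 119 CPM in TGF-β1 samples and 121, 124 and 124 CPM in controls, and it was the enzyme closest to 0, with an interval of -0.26 to 0.27 on the log2 scale. HK2 made up 26.3, 22.1 and 19.4% of the summed hexokinase FPKM in TGF-β1 replicates 1 to 3, against 19.5, 17.98 and 20.8% in control replicates 1 to 3, so the groups overlapped. GPI, which isomerises glucose 6-phosphate, had 338, 374 and 460.3 CPM in TGF-β1 samples and 473, 505 and 423 CPM in controls, replicate 3 of the treated group lying inside the control range.

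Phosphofructokinase commits the sugar to glycolysis, and its liver (PFKL), muscle (PFKM) and platelet (PFKP) genes were all expressed. Their log2 differences were -0.24 ± 0.15 for PFKL, -0.051 ± 0.13 for PFKM and -0.20 ± 0.14 for PFKP (SE), and none passed. PFKM took 18.7, 17.2 and 16.8% of the summed phosphofructokinase FPKM in TGF-β1 replicates 1 to 3, against 16.1, 15.2 and 16.2% in control replicates 1 to 3. The groups did not overlap in that share, though by a margin of less than 1 percentage point. PFKFB3 and PFKFB4 make fructose 2,6-bisphosphate, which activates phosphofructokinase. PFKFB3 had 95.05, 94.3 and 106 CPM in TGF-β1 samples and 99.8, 118 and 103 CPM in controls. For PFKFB4 the values were 69.2, 69.97 and 82.6 CPM in TGF-β1 samples and 86.8, 101 and 76.7 CPM in controls. Both overlapped between groups, with log2 differences of -0.11 ± 0.13 and -0.25 ± 0.14 (SE).

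Aldolase splits fructose 1,6-bisphosphate, and ALDOC had 40.4, 46.0 and 58.2 CPM in TGF-β1 samples and 58.5, 78.4 and 51.5 CPM in controls. Its log2 difference was -0.38 ± 0.19 (SE; edgeR adjusted p = 0.350), with control replicate 2 the highest and TGF-β1 replicate 1 the lowest of the 6. The row for ALDOA, in most cells the main aldolase, held only 14, 13 and 15 counts in TGF-β1 replicates 1 to 3 and 23, 17 and 8 counts in control replicates 1 to 3. In GENCODE 29, 53.5% of the exon bases of ALDOA overlap other genes, among them a read-through gene on the same strand (ENSG00000285043) that itself held 81 to 100 counts in TGF-β1 samples and 81 to 131 counts in controls. The level of ALDOA is therefore uncertain, and no share of aldolase is drawn from it. TPI1, triose phosphate isomerase, had 1447, 1819.8 and 1922 CPM in TGF-β1 samples and 1709, 2208 and 1576 CPM in controls, with overlapping groups and a log2 difference of -0.082 ± 0.16 (SE).

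None of the enzymes of the later steps was called. GAPDH, the dehydrogenase that makes NADH, had 2767, 2964 and 4008 CPM in TGF-β1 replicates 1 to 3, against 4127, 4570.3 and 3666 CPM in control replicates 1 to 3. PGK1, which makes the first ATP, had 1368, 1496 and 1827 CPM in TGF-β1 samples and 1992, 2293 and 1754 CPM in controls. In both genes TGF-β1 replicates 1 and 2 lay below all controls and replicate 3 above control replicate 3. Log2 differences were -0.34 ± 0.15 for GAPDH and -0.36 ± 0.15 for PGK1 (SE; edgeR adjusted p = 0.311 and 0.258). Without TGF-β1 replicate 3 they were -0.53 and -0.49 and passed (edgeR adjusted p = 0.0206 and 0.0354). That replicate was the treated library highest in both genes, so leaving it out had to widen the difference and is no separate support. Neither gene passed with any other single library left out, where edgeR adjusted p reached 0.729 for GAPDH and 0.694 for PGK1.

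PGAM1, the mutase that shifts the phosphate, had 756, 821 and 965 CPM in TGF-β1 samples and 999, 1103 and 921 CPM in controls. The enolases make phosphoenolpyruvate, and ENO1 had 1704, 2030.2 and 2439.7 CPM in TGF-β1 samples and 2579, 2879 and 2298 CPM in controls. ENO2, the form named for neurons, had 144, 145 and 184 CPM in TGF-β1 samples and 195, 240.2 and 181 CPM in controls. All 3 genes showed the same order as GAPDH, with TGF-β1 replicate 3 inside the control range and the other 2 treated libraries below it. Leaving out TGF-β1 replicate 3, ENO1 (edgeR adjusted p = 0.0422) and ENO2 (0.0396) passed and PGAM1 (0.0850) did not. That replicate was the highest treated library in all 3 genes, so its omission had to widen the differences and is no separate support. With any other single library left out none of the 3 passed, and edgeR adjusted p reached 0.751 for ENO1, 0.687 for ENO2 and 0.818 for PGAM1. ENO2 made up 8.01 to 9.33% of the enolase FPKM in TGF-β1 samples and 8.42 to 9.23% in controls, so the pair kept overlapping proportions.

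PKM, pyruvate kinase, catalyses the last step. Its log2 difference of -0.45 was the largest of the 15 enzymes on the TMM scale, while with the GC trend removed PGK1 (-0.52) lay further from 0 than PKM (-0.38). The PKM gene (ENSG00000067225) lies on chromosome 15 from 72199029 to 72231822 on the minus strand of GRCh38. It had 3385, 3582 and 4800.4 CPM in TGF-β1 replicates 1 to 3, against 5197, 6055 and 4827 CPM in control replicates 1 to 3. It was the only enzyme in which every TGF-β1 library lay below every control, though the nearest pair, the replicates 3, differed little. Means were 3922 ± 767 CPM in TGF-β1 samples and 5359.8 ± 629.7 CPM in controls (SD, n = 3 per group), a log2 difference of -0.45 ± 0.15 (SE). By edgeR this missed the threshold (adjusted p = 0.200, and 0.0835 with the GC trend removed), and the threshold was passed without TGF-β1 replicate 3 (adjusted p = 0.0111). That replicate was the treated library highest in PKM, so its omission had to widen the difference and is no separate support. The threshold was missed with any other single library left out, where edgeR adjusted p reached 0.548.

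**Figure D3:**
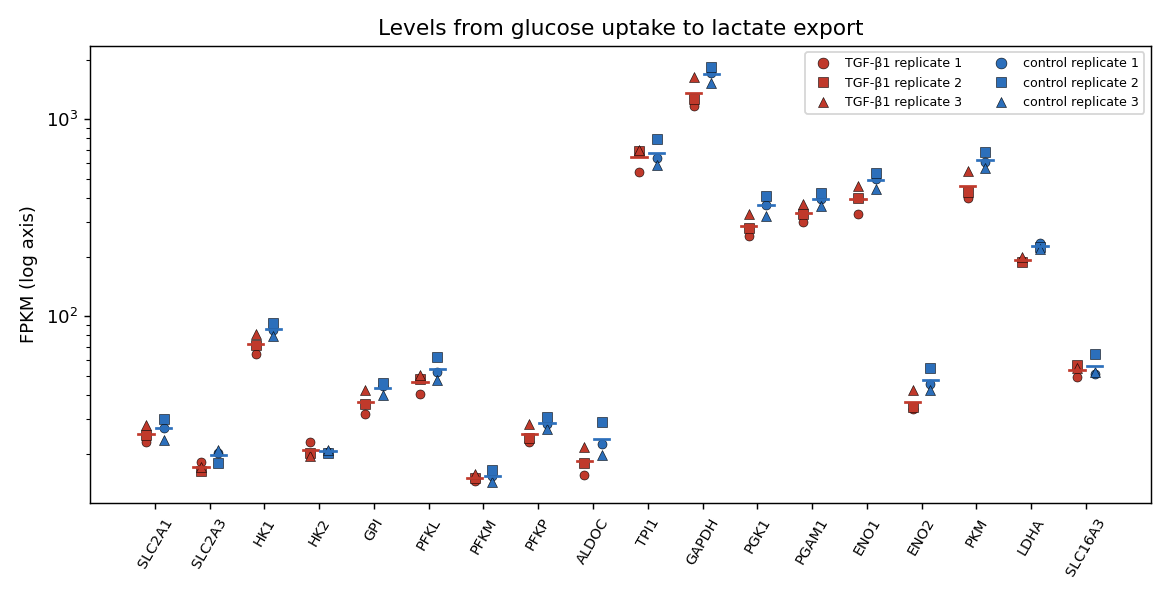
FPKM (y axis, log scale) of 18 members in the order from glucose uptake to lactate export (x axis), with red marks for TGF-β1 libraries left of blue marks for controls, shapes for replicates and a bar for each group's mean; ALDOA is left out. Messages from TPI1 to LDHA other than ENO2 sit above the entry enzymes, and the group means differ little against the spacing between genes. That spacing depends on the gene length that FPKM divides by.

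Per length, GAPDH was the most abundant enzyme message at 1358 ± 249 FPKM in TGF-β1 samples and 1704 ± 158 FPKM in controls (SD, n = 3 per group). TPI1, PKM, ENO1, PGAM1 and PGK1 followed in this order in both groups. In the TGF-β1 samples each of these overlapped the next in the order, and in the controls PKM and ENO1 were apart, as were ENO1 and PGAM1. HK1 at 72.6 ± 8.66 FPKM in TGF-β1 samples, against 85.8 ± 6.48 FPKM in controls, led the entry enzymes, and PFKM at 15.2 ± 0.659 FPKM, against 15.5 ± 1.15 FPKM in controls, was the lowest besides ALDOA. HK2 and ALDOC changed places between the groups, and their ranges overlapped in both.

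The enzymes shared an order of libraries as well as a direction. Over the 14 enzymes other than ALDOA, TGF-β1 replicate 1 lay below every control in 12, replicate 2 in 12 and replicate 3 in 2. Over all genes tested those shares were 38.0%, 31.8% and 22.4%. TGF-β1 replicate 3 lay within the control range in 12 of the 14 enzymes, as it did in 55.7% of all genes. The median log2 distance of the 14 enzymes from the mean of the controls was -0.45, -0.31 and -0.057 in TGF-β1 replicates 1 to 3, against -0.019, 0.16 and -0.15 in control replicates 1 to 3. Control replicate 2 was the highest control in all 14 and control replicate 3 the lowest in 13. After removal of the trend the median distances were -0.33, -0.20 and -0.068 in TGF-β1 samples against 0.0012, 0.10 and -0.11 in controls, and replicate 3 was still inside the control range for 11. FN1 in that library was the lowest of the treated libraries and above every control, at the values given above. The part of library composition in the enzyme difference was not tested beyond these values.

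Pyruvate has 2 main fates, reduction to lactate or oxidation in mitochondria. LDHA, the lactate dehydrogenase subunit that favours lactate, had 1144, 1110.4 and 1227 CPM in TGF-β1 replicates 1 to 3, against 1427, 1399 and 1318 CPM in control replicates 1 to 3. The groups did not overlap, the highest TGF-β1 library (replicate 3) lying below the lowest control (replicate 3). Its log2 difference was -0.25 ± 0.11 (SE; edgeR adjusted p = 0.312). On removal of the GC trend it was -0.39 (adjusted p = 0.0970), but the libraries were then spread more widely, at 954, 1081 and 1307 CPM in TGF-β1 samples and 1455, 1621 and 1291 CPM in controls, and the groups overlapped. PGK1 behaved alike, with 1110.0, 1439 and 1963 CPM in TGF-β1 samples and 2040.0, 2708 and 1729 CPM in controls after that removal, so for these abundant messages of 44.0 and 43.3% GC it widened the spread. SLC16A3, the lactate exporter MCT4, had 451, 509 and 513 CPM in TGF-β1 samples and 468, 616 and 481 CPM in controls, with overlapping groups and an interval of -0.39 to 0.21 for the log2 difference.

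PDK1, the kinase that shuts pyruvate dehydrogenase and so keeps pyruvate out of the mitochondria, is a classic HIF target. It had 27.3, 19.8 and 17.4 CPM in TGF-β1 replicates 1 to 3, against 31.7, 26.7 and 26.9 CPM in control replicates 1 to 3. TGF-β1 replicate 1 lay inside the control range and the other 2 treated libraries below it, and the log2 difference of -0.40 ± 0.19 (SE) missed the threshold (edgeR adjusted p = 0.335). After removal of the GC trend the levels were 19.4, 17.9 and 19.4 CPM in TGF-β1 samples and 33.6, 34.2 and 27.9 CPM in controls. The groups were then apart, with a log2 difference of -0.76 ± 0.12 (SE; edgeR adjusted p = 0.00376). That call was kept in 5 of 6 fits with 1 library left out and lost without TGF-β1 replicate 2 (adjusted p = 0.0515). PDK1 ran against the bulk of AT-rich genes, which lay higher in TGF-β1 samples.

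**Figure D4:**
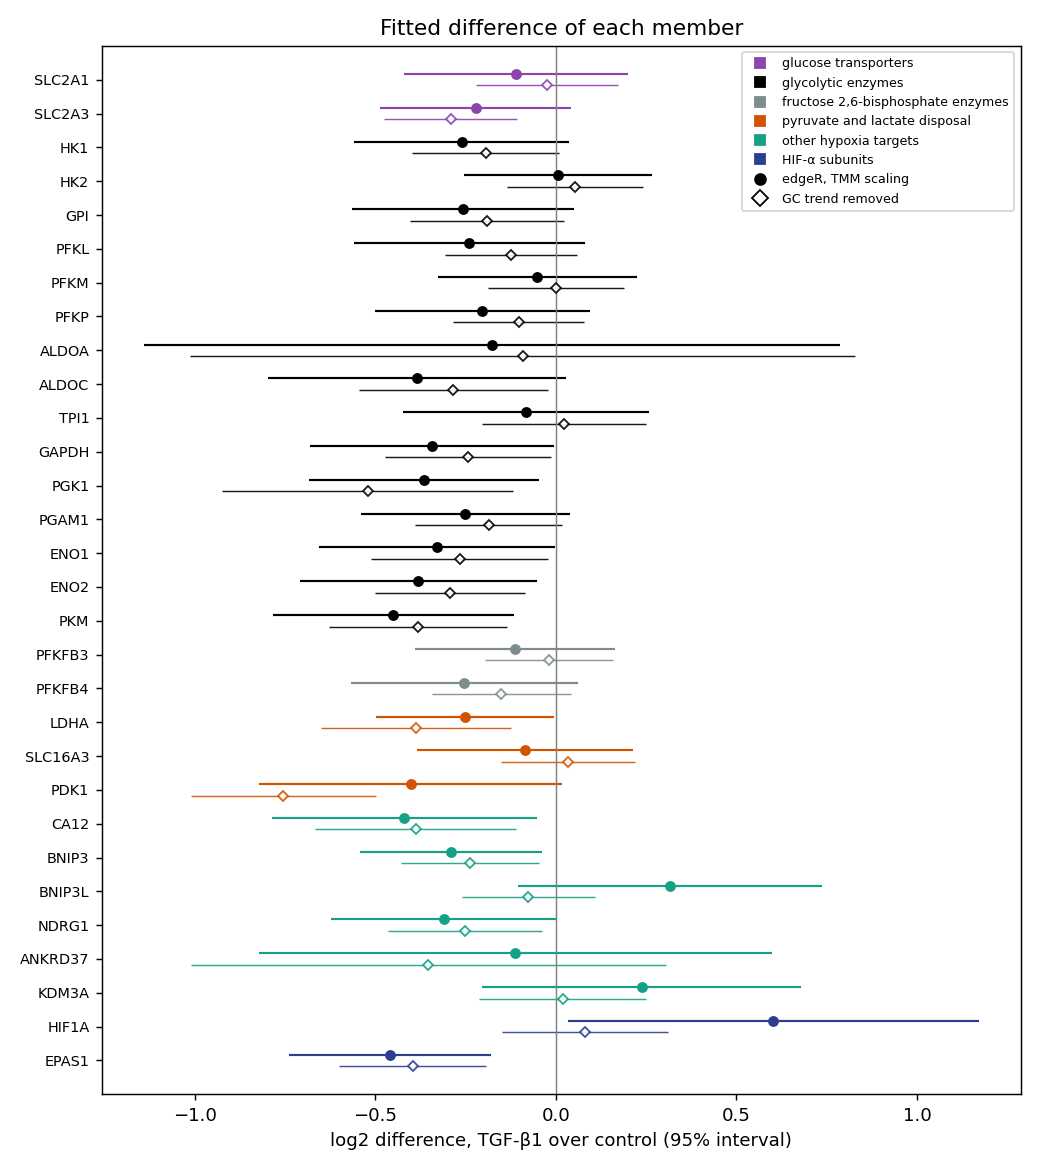
Log2 difference of TGF-β1 over control with its 95% interval (x axis) for the 30 members tested (rows, coloured by role); filled circles are the edgeR fit with TMM scaling and open diamonds the fit with each library's GC trend removed. Most estimates lie between -0.5 and 0; removal moves HIF1A, BNIP3L and KDM3A towards 0 and PDK1 away from it.

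The hypoxia targets outside glucose metabolism did not lie on one side of 0. CA12, a membrane carbonic anhydrase that handles acid, had 9.96, 9.55 and 10.4 CPM in TGF-β1 samples and 13.8, 13.4 and 12.9 CPM in controls. BNIP3, a mitophagy receptor, had 198, 189.8 and 176 CPM in TGF-β1 samples and 231, 234 and 224 CPM in controls. In both genes the groups did not overlap, and unlike in most enzymes TGF-β1 replicate 3 was also below every control. Neither passed, with log2 differences of -0.42 ± 0.17 and -0.29 ± 0.12 (SE; edgeR adjusted p = 0.258 and 0.256). NDRG1, a stress-response gene strongly induced by hypoxia, had 109.7, 110.2 and 140.4 CPM in TGF-β1 samples and 144, 168 and 135 CPM in controls and followed the enzymes, with replicate 3 inside the control range.

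BNIP3L, the mitophagy receptor NIX, and KDM3A, a histone demethylase, lay on the other side of 0. BNIP3L had 193, 144 and 109 CPM in TGF-β1 samples and 134, 104 and 120.0 CPM in controls, and KDM3A 54.0, 39.9 and 33.8 CPM in TGF-β1 samples and 39.7, 28.5 and 40.2 CPM in controls. Only TGF-β1 replicates 1 and 2 of BNIP3L, and replicate 1 of KDM3A, exceeded all controls. Log2 differences were 0.32 ± 0.19 and 0.24 ± 0.20 (SE), and with the GC trend removed they were -0.077 and 0.019, so the direction of BNIP3L was not stable. ANKRD37, a small ankyrin-repeat target, stayed at 1.18 to 2.55 CPM in TGF-β1 samples and 1.63 to 2.38 CPM in controls, and its interval of -0.82 to 0.60 leaves either direction possible.

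CA9 and EGLN3, often used as readouts of HIF activity, were near the detection limit. CA9, the carbonic anhydrase of hypoxic tumours, had 0, 1 and 0 counts in TGF-β1 replicates 1 to 3 and 1, 1 and 4 counts in control replicates 1 to 3. EGLN3, a prolyl hydroxylase that is itself induced by HIF, had 5, 2 and 4 counts in TGF-β1 samples and 1, 10 and 1 counts in controls. Both failed the filter on low counts and were not tested. A floor of 3 counts corresponds to 0.182 to 0.216 CPM in TGF-β1 libraries and 0.170 to 0.213 CPM in controls, which covers counting error only, so a difference in CA9 was not detectable at this depth.

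The HIF-α subunits lay on opposite sides of 0. EPAS1, which encodes HIF-2α, lies on chromosome 2 from 46293667 to 46386703 on the plus strand. It had 279.9, 241 and 301 CPM in TGF-β1 replicates 1 to 3, against 352, 374 and 403 CPM in control replicates 1 to 3. All 3 TGF-β1 libraries lay below all 3 controls, with means of 274 ± 30.7 CPM in TGF-β1 samples and 376 ± 25.8 CPM in controls (SD, n = 3 per group). The log2 difference of -0.46 ± 0.13 (SE) had the smallest p of the members without passing (edgeR adjusted p = 0.146, and 0.0527 by DESeq2). On the GC-corrected scale EPAS1 fell, to 279.6 ± 23.4 CPM in TGF-β1 samples against 368 ± 28.5 CPM in controls, a log2 difference of -0.40 ± 0.095 (SE; edgeR adjusted p = 0.0371). Leaving out 1 library under that removal gave adjusted p = 0.0207 to 0.164, and the call held only without TGF-β1 replicates 1 or 3.

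HIF1A, on chromosome 14 from 61695513 to 61748259 on the plus strand, had 478, 285 and 209 CPM in TGF-β1 replicates 1 to 3, against 225, 168 and 247 CPM in control replicates 1 to 3. TGF-β1 replicate 1 was the highest of the 6 and control replicate 2 the lowest, as for the median AT-rich gene, and TGF-β1 replicate 3 lay inside the control range. The log2 difference was 0.60 ± 0.26 (SE; edgeR adjusted p = 0.290), and 0.84 without TGF-β1 replicate 3, where it passed (adjusted p = 0.0226). That replicate was the treated library lowest in HIF1A, so its omission had to widen the difference and is no separate support. HIF1A did not pass with any other single library left out, where edgeR adjusted p reached 0.712. After removal of the GC trend the values were 303, 243 and 239 CPM in TGF-β1 samples and 247, 226 and 269 CPM in controls, with a log2 difference of 0.081 (adjusted p = 0.725). HIF1A made up 70.7, 62.6 and 49.5% of the summed FPKM of the 2 subunits in TGF-β1 replicates 1 to 3, against 47.6, 38.8 and 46.4% in control replicates 1 to 3. The groups did not overlap in that share, and the part of the GC trend in it was not tested.

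**Figure D5:**
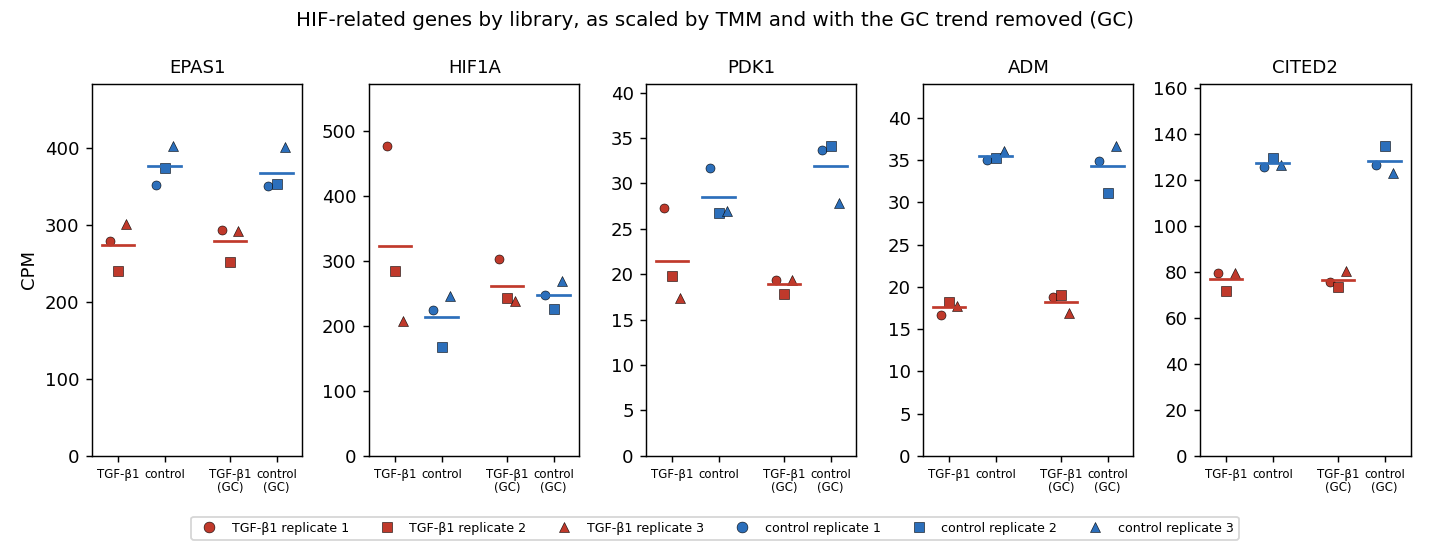
CPM (y axes, each from 0) of EPAS1, HIF1A, PDK1, ADM and CITED2 in each library, red for TGF-β1 left of blue for control, shapes for replicates and bars for group means; the left pair in each panel is scaled by TMM and the right pair has the GC trend removed. ADM and CITED2 are apart in both pairs, and so is EPAS1; PDK1 separates and HIF1A closes up when the trend is removed.

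Beyond the 32 members, 7 lists of related genes held 104 symbols, of which 99 were in the table and 91 tested. By edgeR 2 of the 91 were called, both lower, where 0.366% of all 14463 genes were called and 0.18% were called lower. ADM, the vasodilator peptide adrenomedullin and one of the strongest HIF targets, had 16.7, 18.3 and 17.7 CPM in TGF-β1 replicates 1 to 3, against 35.1, 35.3 and 36.1 CPM in control replicates 1 to 3. All TGF-β1 libraries were near one level, 2.02-fold lower than the controls (log2 difference -1.01 ± 0.15, SE; edgeR adjusted p = 0.0139). CITED2, a HIF target that competes with HIF for its coactivator p300, had 79.7, 71.8 and 79.6 CPM in TGF-β1 samples and 126, 129.9 and 127 CPM in controls. It was 1.66-fold lower in TGF-β1 samples (log2 difference -0.73 ± 0.12, SE; edgeR adjusted p = 0.0279).

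In both genes replicate 3 of the TGF-β1 group stood with the other treated libraries, and with the GC trend removed the log2 differences were -0.91 for ADM and -0.74 for CITED2 (edgeR adjusted p = 8.55e-04 and 4.55e-04). Leaving out 1 library left them at adjusted p = 1.30e-04 to 0.187 and 2.52e-04 to 0.301 by edgeR. ADM missed the threshold without control replicates 1 (0.129) or 3 (0.0977) or TGF-β1 replicate 2 (0.187). CITED2 missed it without control replicates 1 (0.197), 2 (0.0613) or 3 (0.139) or TGF-β1 replicate 2 (0.301). Every such fit with the GC trend removed called both genes (adjusted p = 2.76e-04 to 0.0139 for ADM and 1.65e-04 to 0.0107 for CITED2).

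Counts by list describe the rest of the pathway. Of 23 other hypoxia-inducible genes tested, 13 were below 0 and 10 above, with a median log2 difference of -0.097 and ADM called. Of 11 HIF pathway regulators, 7 were below 0 and CITED2 was called. Of 20 genes of the tricarboxylic acid cycle 17 were below 0, with a median of -0.15 and 0 called, the smallest p being that of SUCLG2, a succinyl-CoA ligase subunit (log2 difference -0.35 ± 0.16; edgeR adjusted p = 0.302). Pentose phosphate genes were divided, with 4 of 7 below 0. Genes of pyruvate dehydrogenase and the mitochondrial pyruvate carrier lay 5 below and 6 above 0, led by DLD, the lipoamide dehydrogenase (log2 difference 0.56, and 0.18 with the GC trend removed; edgeR adjusted p = 0.259). The other glycolytic isozymes lay 4 below and 5 above 0, led by MINPP1, an inositol and bisphosphoglycerate phosphatase (log2 difference 0.51; edgeR adjusted p = 0.242). Hexose and monocarboxylate transporters lay 5 below and 5 above 0.

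The transporter list was led by EMB, embigin, a chaperone of monocarboxylate transporters, with 17.2, 11.1 and 7.95 CPM in TGF-β1 replicates 1 to 3, against 6.08, 4.14 and 6.64 CPM in control replicates 1 to 3. Its groups did not overlap and its log2 difference was 1.11 ± 0.29 (SE; edgeR adjusted p = 0.136). With the GC trend removed the log2 difference of EMB was smaller, at 0.63 ± 0.16 (SE; edgeR adjusted p = 0.0485). On the GC-corrected scale 10 of the 91 genes were called, where 3.33% of all genes were. The 7 lower genes were ADM, CITED2, LOX, PPP1R3C, PDP1, SUCLG2 and SDHD, and the 3 higher included BHLHE40 and EMB. LOX, a collagen crosslinking enzyme, was at 24.0, 28.1 and 26.7 CPM in TGF-β1 samples and 36.6, 39.8 and 39.7 CPM in controls on that scale, and SUCLG2 at 49.99, 50.7 and 54.1 CPM in TGF-β1 samples and 78.5, 78.5 and 81.7 CPM in controls. BHLHE40, a HIF-induced repressor also known as DEC1, was at 168, 172 and 148 CPM in TGF-β1 samples and 114, 116 and 124 CPM in controls. HIF-inducible genes were thus called on both sides of 0 on that scale.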

How the data were processed

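Per the labels' protocols, Trizol-extracted RNA went into NEBNext Ultra libraries, whose chemistry keeps no strand information. HISAT2, HTSeq 0.13.5 and the build GRCh38 are named in the submitters' processing notes. The authors deposited whole-number read counts and FPKM per gene and sample, per the file headers. Members and lists were chosen with earlier results of these data known. Every member is named, and from the other lists the called genes or the gene with the smallest p. Some genes of these lists are not reported here. Counts were tested in edgeR 4.0.16 (R 4.3.3; quasi-likelihood F test, robust, TMM, filterByExpr) over 14463 genes, with a Benjamini-Hochberg adjusted p under 0.05 as a call, after the script was tested on simulated data with 200 changed genes. Intervals are 95%. Alternatives were other scalings and filters, the replicate block, DESeq2 1.42.0, limma 3.58.1 (voom, log2(FPKM + 1), log2(FPKM + 0.1)), each sample left out, and removal by loess (span 0.5) of each library's trend on GC content, or GC and length, of the longest GENCODE 29 transcript. GENCODE 29 on GRCh38 matched 26980 of 27830 genes and gave a GC content for 26968. Promoters came from RefSeq for 29 of 32 members. No 2 libraries of a group were duplicates, with chi-square of 4.86 to 41.1 per degree of freedom.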

Additional observations from a re-analysis of the deposited data

How the results depend on the processing

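Over the whole table the 53 calls became 111 with upper quartile factors, 1240 with no filter, 482 with the GC trend removed, 646 with GC and length removed, 615 with DESeq2 and 4 to 1671 with 1 library left out (97 to 1511 with the GC trend removed as well). Members called were 3 with no filter, 2 with each GC removal, and 0 to 7 with 1 library left out (0 to 9 with the GC trend removed). Other pathway genes called were 5 with no filter, where 1240 of 27830 genes were called. Among the 91 tested they were 10 with the GC trend removed (3.33% of all genes), 11 with GC and length (646 of 14463 genes) and 4 with DESeq2 (4.25% of all genes). They were 0 to 14 with 1 library left out (4 to 18 with the GC trend removed), beside the whole-table ranges just given. A fit with the replicate block called 527 of 14463 genes, 0 of them members and 4 among the 91 other pathway genes. With the block and the GC trend removed the calls were 490 of 14463, 2 and 9. Each gene's deviations from its group mean correlated between same-numbered samples at 0.18, 0.10 and -0.35 for replicates 1 to 3. With the GC trend removed these correlations were -0.004, 0.083 and -0.18, so the numbers were not taken to pair the samples. With the GC trend removed, with GC and length removed, and with the block added to GC removal, log2 differences changed sign in PFKM (0.000125, 0.0288, 0.0025), TPI1 (0.0227, 0.0663, 0.0246), SLC16A3 (0.0328, 0.0321, 0.0340) and BNIP3L (-0.0767, -0.0475, -0.0765). With GC and length removed they did so in SLC2A1 (0.0029) and KDM3A (-0.0870). HK2 turned to -0.0017 with RLE factors, -0.0289 with upper quartile factors, -0.0058 with no filter and -0.0017 with DESeq2. With 1 library left out, and in parentheses with the GC trend removed as well, log2 differences were -0.21 to -0.0302 (-0.0989 to 0.0307) for SLC2A1, -0.064 to 0.0399 (-0.0166 to 0.10) for HK2, -0.12 to -0.0017 (-0.0576 to 0.0548) for PFKM, -0.53 to 0.28 (-0.42 to 0.38) for ALDOA, -0.19 to 0.0523 (-0.0443 to 0.11) for TPI1, -0.17 to -0.0622 (-0.0486 to 0.0036) for PFKFB3, -0.16 to 0.0265 (-0.0095 to 0.0759) for SLC16A3, 0.0818 to 0.49 (-0.13 to -0.0343) for BNIP3L, -0.42 to 0.11 (-0.69 to -0.21) for ANKRD37, 0.0278 to 0.38 (-0.0609 to 0.0608) for KDM3A and 0.21 to 0.84 (-0.0368 to 0.14) for HIF1A. Medians were -0.13 to 0.16 (-0.23 to -0.0963) for the HIF-α subunits, -0.32 to -0.18 (-0.25 to -0.14) for all members and -0.29 to -0.22 (-0.52 to -0.29) for pyruvate and lactate disposal. In the last 150 bases of the window 58.6% of members held a core (exact 95% interval 38.9 to 76.5%), against 43.7% of protein-coding genes, which lies inside that interval. For ACGTG alone it was 34.5% of members, against 17.2% of protein-coding genes. Causes were not tested. With the main settings the 95% interval of the log2 difference held 0 for 20 of the 30 members tested.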
